A study of Mus musculus with 16 samples.

Results

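The genes described here are the Wnt ligands, their Frizzled receptors and co-receptors, and the secreted Wnt antagonists of the mouse heart, 46 of the 56953 genes counted. They were chosen by symbol, with earlier results of these data known: every Wnt, Frizzled (Fzd), secreted frizzled-related protein (Sfrp) and Dickkopf (Dkk) gene, with Frzb, Wif1, Lrp5, Lrp6, Axin2, Lef1, Ror1 and Ror2. By role these were 19 ligands, 14 receptors or co-receptors, 11 secreted antagonists and 2 genes of feedback or nuclear response, Axin2 and Lef1. RNA came from left ventricles of Bl6J mice of both sexes, 4 mice and 4 libraries per group. WT Ctr and WT Tnpo3 mice were wild type, and P635L Ctr and P635L Tnpo3 mice were homozygous for the P635L mutation of RBM20, a splicing factor of striated muscle whose mutation causes cardiomyopathy. All mice, controls included, received AAV9 at 1e12 viral genomes by tail vein at 4 weeks of age and were killed at 16 weeks, 12 weeks later. In the Tnpo3 groups the virus delivered a cDNA of Tnpo3, whose protein carries splicing factors into the nucleus. In the Ctr groups it carried iCre and eGFP behind the CAG promoter, so these hearts received Cre recombinase and a green fluorescent protein from a ubiquitous promoter. The promoter of the Tnpo3 virus and the sex of single mice are not given in the sources used here.

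Wnt proteins are lipid-modified secreted ligands that bind Frizzled receptors. With the co-receptors LRP5 and LRP6 they stabilise beta-catenin, which enters the nucleus and acts with TCF and LEF factors, while WNT5A-type ligands also act through ROR receptors on cell polarity and calcium. Secreted frizzled-related proteins, among them FRZB, and WIF1 bind the ligands themselves, whereas some Dickkopf proteins, such as DKK1, bind the co-receptors. In the adult heart the pathway is kept low and is known to be used again after injury, by fibroblasts as well as muscle cells.

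Libraries held 28493249 to 85922669 counts in genes. Tnpo3 stood at 41.6 to 49.4 CPM (counts scaled to a common library size with TMM factors) in the 8 control-virus libraries and at 231 to 723 CPM in the 8 Tnpo3-virus libraries, so every library matched its virus label. In WT Ctr 2, WT Ctr 4 and WT Tnpo3 4 a single gene, ENSMUSG00000119584, took 19.96% to 22.7% of all counts, against 0.703% to 5.30% in the other 13, and results that rest on these 3 libraries are also given without them. Xist, the RNA of the inactive X chromosome of female cells, stood at 587, 211 and 504 CPM in WT Ctr 4, WT Tnpo3 2 and WT Tnpo3 4 and at 0.207 to 2.39 CPM in the other 13 libraries, all 8 mutant libraries among them. Genes of heart muscle marked every library: the 8 cardiomyocyte markers summed to 76933 to 94507 CPM in WT Ctr, 68753 to 88466 in WT Tnpo3, 54497 to 58532 in P635L Ctr and 59696 to 69608 in P635L Tnpo3.

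Of the 46 genes, 33 had enough counts to be tested. The call threshold was an edgeR adjusted p under 0.05 (quasi-likelihood test, adjusted over all 18662 genes tested). P635L hearts with the control virus differed from WT Ctr in 9 of the 33 (27.3%), 8 higher and 1 lower, where 14.2% of all genes tested were called (7.07% higher and 7.14% lower). Fzd2, Dkk3, Sfrp2, Wnt5b, Fzd1, Frzb, Fzd7 and Sfrp1 rose, and Wnt5a fell. The libraries of both groups did not overlap for 9 of the 33, these genes with Wnt9a in place of Sfrp1, as for 19.1% of all genes tested. The median log2 fold change of the 33 was 0.27, and that of all genes tested was -0.05. With the Tnpo3 virus, P635L hearts differed from P635L Ctr in 3 of the 33 (9.09%), the receptors Fzd2, Fzd1 and Fzd7, all lower, where 3.88% of all genes tested were called (2.25% lower). The median of the 33 was -0.30 and that of all genes tested 0.01. The libraries did not overlap for 5 of the 33, all lower (Fzd2, Fzd5, Fzd7, Fzd8 and Wnt9a), as for 20.4% of all genes tested (11.0% lower). These comparisons share the P635L Ctr libraries. P635L Tnpo3 differed from WT Ctr in 3 of the 33, Fzd2 and Wnt5b higher and Wnt5a lower, where 3.07% of all genes tested were called (1.49% higher and 1.58% lower). The same 3 genes were called the same way against WT Tnpo3, where 3.72% were called (1.72% higher and 2.0% lower). In wild-type hearts the Tnpo3 virus changed none of the 33 by edgeR or DESeq2, with 1 at an unadjusted p under 0.05, where 0.00536% of all genes tested were called.

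**Figure D1:**
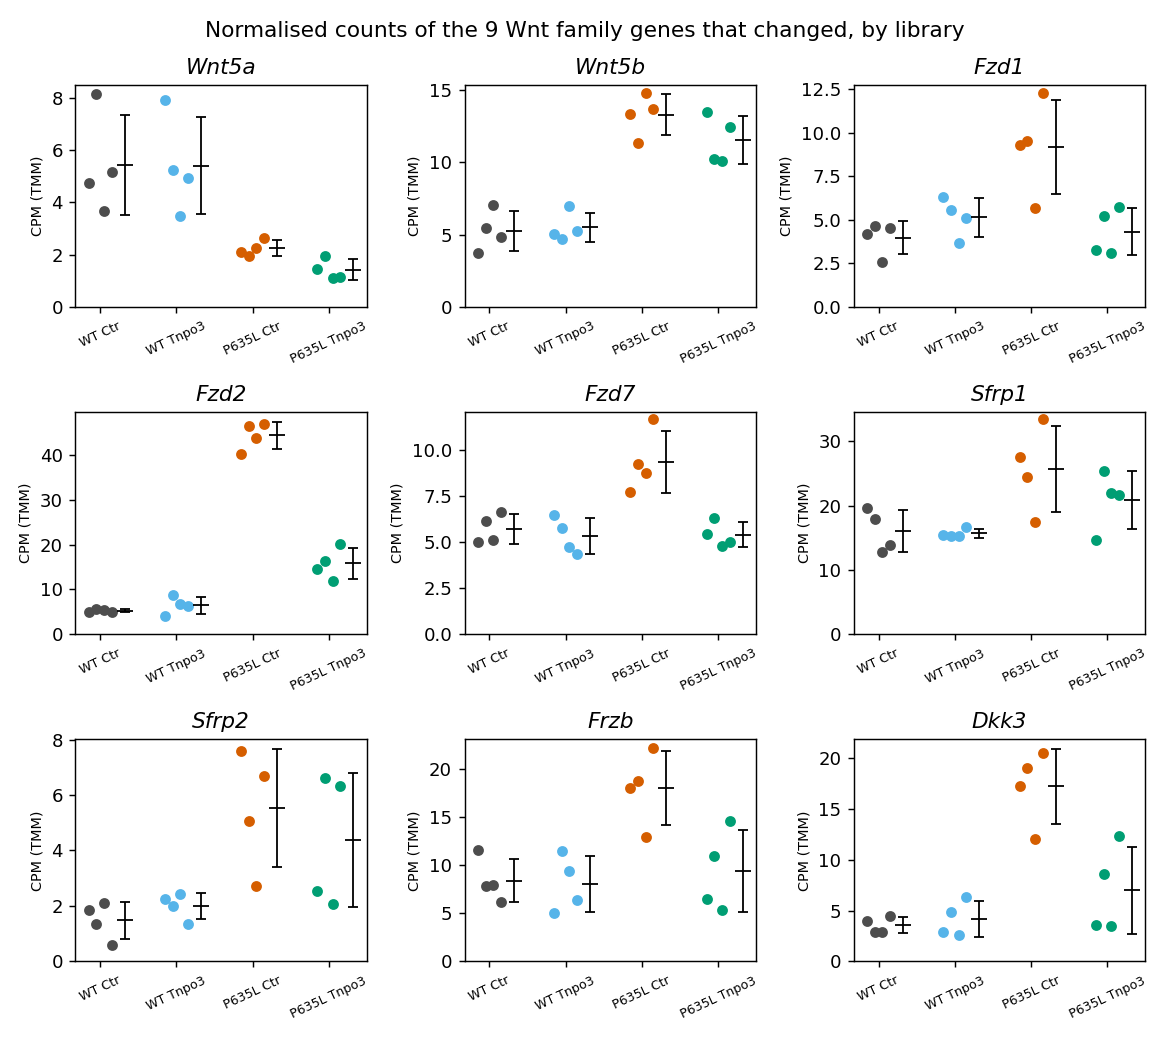
Normalised counts (CPM with TMM factors, vertical axis from 0) of the 9 genes called in at least 1 comparison, with 1 point per library in the 4 groups on the horizontal axis and the mean ± SD beside the points. Fzd2 stands at 40.3 to 47.0 CPM in P635L Ctr and at 4.87 to 5.61 CPM in WT Ctr, while Wnt5a and Wnt5b separate by genotype in both virus groups.

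**Figure D2:**
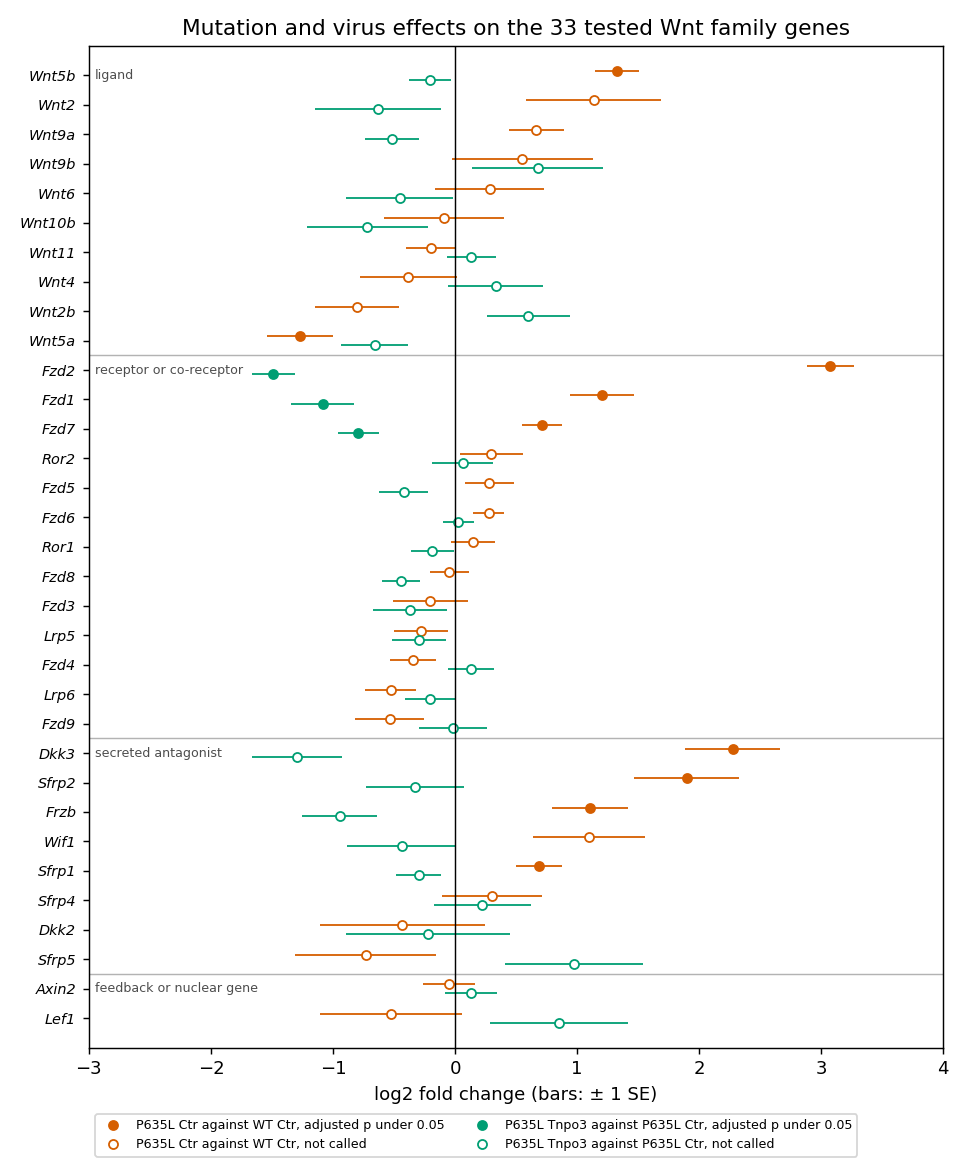
Log2 fold changes ± 1 SE (horizontal axis) of the 33 tested genes by role, for P635L Ctr against WT Ctr (orange) and P635L Tnpo3 against P635L Ctr (green), with filled points for genes called at an edgeR adjusted p under 0.05. The 3 filled green points are Fzd2, Fzd1 and Fzd7, and both sets of values share the P635L Ctr libraries.

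Fibroblast markers changed in the same comparisons. Of 8 fibroblast markers (Pdgfra, Col1a1, Col1a2, Dcn, Lum, Tcf21, Dpt and Gsn), 7 were called higher in P635L Ctr than in WT Ctr and 6 were called lower in P635L Tnpo3 than in P635L Ctr. Of all genes tested, 7.07% and 2.25% were called in these directions. Their summed level was 2404 to 3118 CPM in WT Ctr, 2521 to 3059 in WT Tnpo3, 3778 to 5356 in P635L Ctr and 2750 to 3415 in P635L Tnpo3, and none of the 8 was at 0. Of 8 markers of activated fibroblasts, among them Postn and Fn1, 5 were called higher in P635L Ctr, and their sum was 439 to 799 CPM there, 230 to 321 in WT Ctr and 249 to 677 in P635L Tnpo3. Other marker lists moved as well. Of the 8 cardiomyocyte markers, 5 were called lower in P635L Ctr than in WT Ctr and 1 was called higher in P635L Tnpo3 than in P635L Ctr. Among all 18662 genes tested, 7.14% were called lower in the first of these comparisons and 305 genes were called higher in the second. The 5 atrial markers summed to 151 to 411 CPM in WT Ctr, 195 to 291 in WT Tnpo3 and 5139 to 9804 in P635L Ctr. In P635L Tnpo3 they summed to 4512 CPM in replicate 4 and to 919 to 1201 CPM in the other 3. Of these 5, Nppa, the natriuretic peptide gene that stressed ventricles also express, was called higher in P635L Ctr and lower with the virus, Mybphl was called lower in P635L Ctr, Myl4 was not called, and Sln and Myl7 had too few counts to be tested. Of 4 endocardial markers, Npr3 and Cytl1 were called lower in P635L Tnpo3 than in P635L Ctr, and the sum was 45.6 to 56.5 CPM in WT Ctr, 48.1 to 68.6 in P635L Ctr and 35.9 to 43.6 in P635L Tnpo3. In each of the other 7 lists (endothelial, smooth muscle and pericyte, macrophage, lymphocyte, Schwann cell, adipocyte and epicardial) at most 1 gene was called in either comparison. The macrophage sum was 263 to 779 CPM in WT Ctr, 214 to 301 in P635L Ctr and 327 to 549 in P635L Tnpo3. With the virus all 8 macrophage markers were higher in P635L hearts, 7 at an unadjusted edgeR p under 0.05 and none called. In the same groups the adipocyte sum was 1062 to 1307, 983 to 1217 and 1331 to 1492 CPM. The epicardial sum was 6.55 to 8.66, 4.45 to 5.67 and 4.67 to 8.30 CPM. The part of these cells in the Wnt results was not tested. In bulk tissue, more or fewer cells of a type and more or less RNA per cell cannot be told apart, and the part of fibroblast number in the results was not tested. As a measurement beside it, each of the 9 genes was divided by the summed fibroblast markers of its library. Per 1000 CPM of these markers, Fzd2 stood at 1.94 ± 0.281 in WT Ctr, 2.32 ± 0.547 in WT Tnpo3, 9.82 ± 1.29 in P635L Ctr and 5.08 ± 0.698 in P635L Tnpo3 (SD, n = 4 each). The mean ratio was 5.07 times as high in P635L Ctr as in WT Ctr and 0.518 times as high in P635L Tnpo3 as in P635L Ctr, with no overlap between libraries in either case. Dkk3 per marker was 2.88 times as high in P635L Ctr as in WT Ctr, again with no overlap. Among all genes tested, 1.55% were higher without overlap in P635L Ctr by this ratio and 0.514% were lower without overlap in P635L Tnpo3. Wnt5a per marker was 0.251 times the WT Ctr value in P635L Ctr without overlap, as 49.2% of all genes tested were lower on this scale. For Fzd1, Fzd7, Frzb, Sfrp1, Sfrp2 and Wnt5b the ratios of the groups overlapped in both comparisons. With the geometric mean of the 8 markers in place of their sum, an alternative chosen after seeing the data, Frzb did not overlap: its ratio was 0.0806 to 0.0946 in P635L Ctr and 0.0571 to 0.0786 in WT Ctr, and 1.46% of all genes tested were higher without overlap on that scale. Fzd7 and Sfrp1 per marker were 0.976 and 0.962 times the WT Ctr value in P635L Ctr, so their rise in CPM was no larger than that of the markers.

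**Figure D3:**
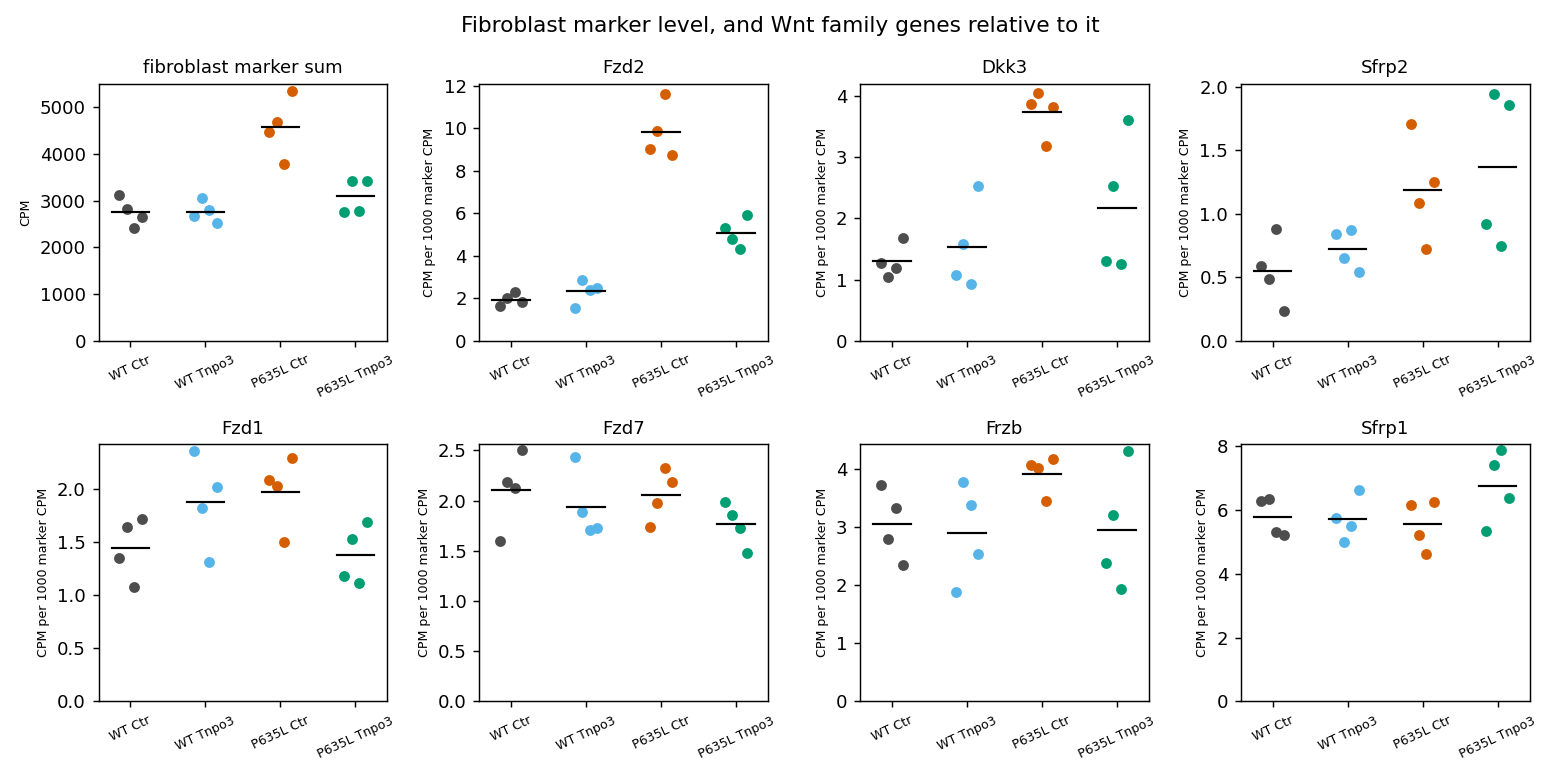
Summed CPM of 8 fibroblast markers (first panel) and CPM of 7 Wnt family genes per 1000 CPM of these markers (other panels), with 1 point per library and a line at the group mean. Fzd2 and Dkk3 stay apart between P635L Ctr and WT Ctr on this scale, and the groups overlap for Sfrp2, Fzd1, Fzd7, Frzb and Sfrp1.

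Among the receptors, Fzd2 carried the largest change. Its product is a Frizzled that takes part in both beta-catenin and WNT5A signalling. Fzd2 (ENSMUSG00000050288, chr11:102495222-102498884 in GRCm39) is a gene of 1 exon. It stood at 5.07, 5.61, 5.51 and 4.87 CPM in the WT Ctr libraries and at 4.16, 8.73, 6.71 and 6.24 CPM in WT Tnpo3. In P635L Ctr it stood at 40.3, 46.4, 43.9 and 46.9 CPM, and in P635L Tnpo3 at 14.6, 16.4, 12.0 and 20.2 CPM. Every P635L Ctr library was above every other library, and the P635L Tnpo3 libraries lay between the P635L Ctr and the wild-type libraries without touching either. The log2 fold change was 3.08 (SE 0.19, edgeR adjusted p = 1.18e-08) for P635L Ctr against WT Ctr. It was -1.49 (SE 0.18, edgeR adjusted p = 0.000130) for P635L Tnpo3 against P635L Ctr, so Fzd2 fell. P635L Tnpo3 was still above WT Ctr, with 1.59 (SE 0.18, edgeR adjusted p = 7.10e-05). Against WT Tnpo3 the log2 fold change was 1.29 (SE 0.18, edgeR adjusted p = 0.000523).

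The effect of the Tnpo3 virus on Fzd2 differed between genotypes. In wild-type hearts the virus gave a log2 change of 0.30 ± 0.18 (SE), and the difference between the effects (mutant minus wild type) was -1.79 (SE 0.25, edgeR adjusted p = 0.00274). Fzd2 was the only 1 of the 33 called in this interaction, where 0.504% of all genes tested were called, and Fzd1 followed with -1.46 (SE 0.37, edgeR adjusted p = 0.0896). All 5 calls of Fzd2 held in every alternative processing tried and without any single library.

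Fzd1 and Fzd7, Frizzleds of the same subfamily as Fzd2 and likewise genes of 1 exon (chr5:4803839-4808035 in GRCm39, and chr1:59521583-59526114 in GRCm39), moved the same way with smaller changes. Fzd1 stood at 4.20, 4.62, 2.58 and 4.55 CPM in WT Ctr, 9.31, 9.49, 5.66 and 12.2 in P635L Ctr and 3.25, 5.21, 3.09 and 5.76 in P635L Tnpo3. Fzd7 stood at 4.99, 6.15, 5.10 and 6.64 CPM in WT Ctr, 7.74, 9.25, 8.78 and 11.7 in P635L Ctr and 5.47, 6.33, 4.81 and 5.03 in P635L Tnpo3. P635L Ctr lay above WT Ctr in every library for both genes. P635L Tnpo3 lay below P635L Ctr in every library for Fzd7, whereas for Fzd1 the highest P635L Tnpo3 library, 5.76 CPM, passed the lowest P635L Ctr library, 5.66 CPM. The log2 fold change of Fzd1 was 1.21 (SE 0.26, edgeR adjusted p = 0.00426) in P635L Ctr against WT Ctr and -1.08 (SE 0.26, edgeR adjusted p = 0.0251) in P635L Tnpo3 against P635L Ctr. For Fzd7 it was 0.71 (SE 0.17, edgeR adjusted p = 0.00739) and -0.79 (SE 0.17, edgeR adjusted p = 0.0118). In WT Tnpo3 the levels were 3.66 to 6.28 CPM for Fzd1 and 4.36 to 6.50 CPM for Fzd7, with log2 fold changes of 0.37 ± 0.26 (SE) and -0.10 ± 0.17 (SE) against WT Ctr, neither of them called. P635L Tnpo3 and WT Ctr did not differ beyond the error: the log2 change was 0.12 ± 0.26 (SE) for Fzd1 and -0.08 ± 0.17 (SE) for Fzd7. Their fall with the virus depends on single libraries: the call of Fzd1 was lost without P635L Ctr 1, 2 or 4 or P635L Tnpo3 1 or 3 (edgeR adjusted p up to 0.106), and that of Fzd7 without P635L Ctr 4 or P635L Tnpo3 3 (up to 0.0581).

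The windows before the RefSeq starts of Fzd1 and Fzd7 are shown because these receptors moved together in both comparisons of mutant hearts. Fzd2, which moved with them, was not matched to a promoter window. The lines give the 250 bases before each RefSeq start, 5′ to 3′ on the strand of the gene, in GRCm38.p6 coordinates (chr5:4758217-4758466, minus strand, and chr1:59481897-59482146, plus strand). The sequence just after these starts was not found in the GENCODE transcripts of either gene, so the starts differ between annotations, and the motif counts hold for these windows only. Capitals mark matches, on either strand and counted where they overlap, to the core TCF/LEF site CTTTGA or to the GC box GGGCGG.
Fzd1: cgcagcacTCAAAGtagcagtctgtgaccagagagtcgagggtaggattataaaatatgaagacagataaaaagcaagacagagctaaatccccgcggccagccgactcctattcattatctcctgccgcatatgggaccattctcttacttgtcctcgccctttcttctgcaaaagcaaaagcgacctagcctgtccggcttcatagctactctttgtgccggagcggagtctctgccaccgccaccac
Fzd7: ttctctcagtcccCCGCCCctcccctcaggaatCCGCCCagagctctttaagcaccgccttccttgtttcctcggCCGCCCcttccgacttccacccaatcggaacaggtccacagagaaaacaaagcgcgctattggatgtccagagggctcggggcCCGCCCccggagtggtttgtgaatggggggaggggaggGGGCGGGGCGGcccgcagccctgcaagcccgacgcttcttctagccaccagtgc
The Fzd1 window held 1 TCF/LEF core and no GC box, and the Fzd7 window held 6 GC boxes and no TCF/LEF core. Of the 38 windows found for 32 of the 46 genes, 7 (18.4%) held a TCF/LEF core and 28 (73.7%) a GC box, against 13.8% and 32.7% of all 32851 promoter windows of the same length. The TEAD core CATTCC was in none of the 38 and in 12.6% of all windows. A match is a string of letters, not a bound site.

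The other receptors and co-receptors were not called in any comparison. Per length, so that genes can be set beside each other, Fzd4 was the highest Frizzled in WT Ctr at 8.47 ± 2.50 CPM per kb (SD, n = 4), followed by Fzd6 at 4.74 ± 0.460, while Fzd2, Fzd7 and Fzd1 stood at 1.44 ± 0.0966, 1.26 ± 0.177 and 0.950 ± 0.228. Fzd4, a receptor of norrin in endothelium as well as of Wnt ligands, was at 37.8, 52.8, 58.7 and 78.4 CPM in WT Ctr and 44.9, 41.0, 47.4 and 45.9 CPM in P635L Ctr. These libraries overlap, and the log2 fold change was -0.35 (SE 0.19, edgeR adjusted p = 0.244). Among the 33 tested genes, the 10 receptors and co-receptors not called in P635L Ctr against WT Ctr had log2 fold changes from -0.54 (Fzd9) to 0.30 (Ror2). The co-receptor Lrp6 was highest in WT Ctr 2 and WT Ctr 4, at 59.4 and 51.3 CPM against 42.1 and 25.8 in the other WT Ctr libraries, and its partner Lrp5 was highest in the same 2 libraries. These are libraries rich in ENSMUSG00000119584, and the part of that in the 2 values was not tested. In the authors' deposited table Lrp6 was lower in P635L Tnpo3 than in WT Ctr (log2 fold change -0.71, DESeq2 adjusted p = 0.0297).

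The change of Fzd2 altered the make-up of the Frizzled transcripts. The summed level of the 10 Frizzled genes was 19.9 ± 2.32 CPM per kb in WT Ctr, 21.7 ± 1.50 in WT Tnpo3, 31.5 ± 2.11 in P635L Ctr and 21.9 ± 1.30 in P635L Tnpo3 (SD, n = 4 each). Without Fzd2 the sums were 18.4 ± 2.36, 19.9 ± 1.78, 19.3 ± 1.50 and 17.6 ± 1.30 CPM per kb, and the groups overlapped. The share of Fzd2 was 5.81% to 8.03% in WT Ctr, 5.02% to 11.2% in WT Tnpo3, 37.4% to 40.8% in P635L Ctr and 14.5% to 23.6% in P635L Tnpo3. Fzd4 held 32.6% to 51.0% in WT Ctr and 19.7% to 22.9% in P635L Ctr. Fzd2 was the highest Frizzled in each P635L Ctr library and Fzd4 in each WT library, and in P635L Tnpo3 Fzd4 led in replicates 1 to 3 and Fzd6 in replicate 4. These shares were computed after the change of Fzd2 was known and are a description without a test.

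**Figure D4:**
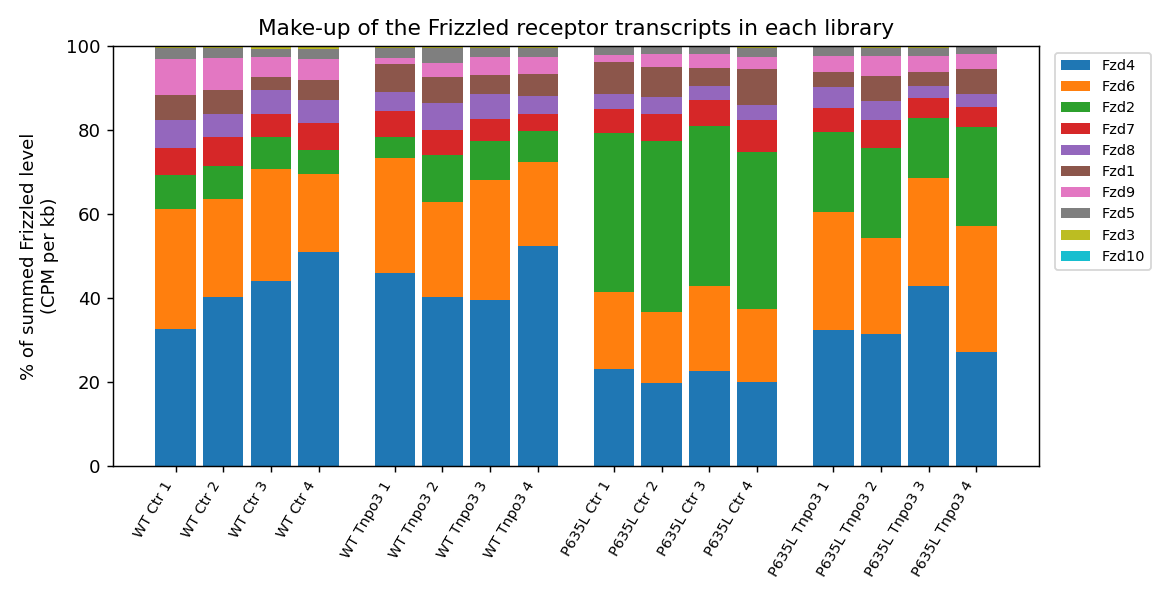
Share of each Frizzled gene in the summed Frizzled level of a library (CPM per kb, vertical axis in %, bars stacked to 100%), for the 16 libraries by group. The green segment, Fzd2, takes 37.4% to 40.8% in P635L Ctr, 14.5% to 23.6% in P635L Tnpo3 and 5.02% to 11.2% in the wild-type groups.

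Among the ligands, Wnt5a and Wnt5b, close paralogs that act largely outside beta-catenin signalling, moved in opposite directions. Wnt5b (ENSMUSG00000030170, chr6:119409492-119521308 in GRCm39) stood at 3.73, 5.49, 7.04 and 4.84 CPM in WT Ctr and 5.07, 4.72, 6.96 and 5.25 CPM in WT Tnpo3. It stood at 13.3, 11.3, 14.8 and 13.7 CPM in P635L Ctr and 13.4, 10.2, 10.1 and 12.4 CPM in P635L Tnpo3. All 8 mutant libraries were above all 8 wild-type libraries, and the virus groups overlapped within each genotype. The log2 fold change was 1.33 (SE 0.18, edgeR adjusted p = 6.19e-05) in P635L Ctr against WT Ctr, -0.20 ± 0.17 (SE) in P635L Tnpo3 against P635L Ctr, which was not called, and 1.07 (SE 0.18, edgeR adjusted p = 0.00228) in P635L Tnpo3 against WT Tnpo3.

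Wnt5a (ENSMUSG00000021994, chr14:28226707-28249405 in GRCm39) stood at 4.74, 8.13, 3.67 and 5.16 CPM in WT Ctr and 7.92, 5.22, 3.49 and 4.92 CPM in WT Tnpo3. It stood at 2.10, 1.95, 2.26 and 2.66 CPM in P635L Ctr and 1.46, 1.97, 1.11 and 1.14 CPM in P635L Tnpo3. All 8 mutant libraries were below all 8 wild-type libraries. The log2 fold change was -1.27 (SE 0.27, edgeR adjusted p = 0.00371) in P635L Ctr against WT Ctr and -1.93 (SE 0.28, edgeR adjusted p = 0.000617) in P635L Tnpo3 against WT Ctr, and -1.92 (SE 0.28, edgeR adjusted p = 0.000704) between the Tnpo3 groups. P635L Tnpo3 against P635L Ctr gave -0.66 (SE 0.28, edgeR adjusted p = 0.206), which was not called. Exons of Wnt5a overlap Gm2670 on the other strand, and whether counting used strand is not given in the sources used here. Without the 3 libraries rich in ENSMUSG00000119584, Wnt5a lost its call in P635L Ctr against WT Ctr (log2 fold change -0.87, edgeR adjusted p = 0.0726).

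Per length, Wnt5b exceeded Wnt5a in every library. The ratio of Wnt5b to Wnt5a (CPM per kb) was 2.32, 1.99, 5.65 and 2.77 in WT Ctr, 1.89, 2.66, 5.87 and 3.15 in WT Tnpo3, 18.8, 17.1, 19.3 and 15.2 in P635L Ctr and 27.1, 15.3, 26.7 and 32.2 in P635L Tnpo3. It was thus higher in every mutant library than in every wild-type library, and it overlapped between the virus groups of each genotype. The ratio was formed after both changes were known and is a description without a test.

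**Figure D5:**
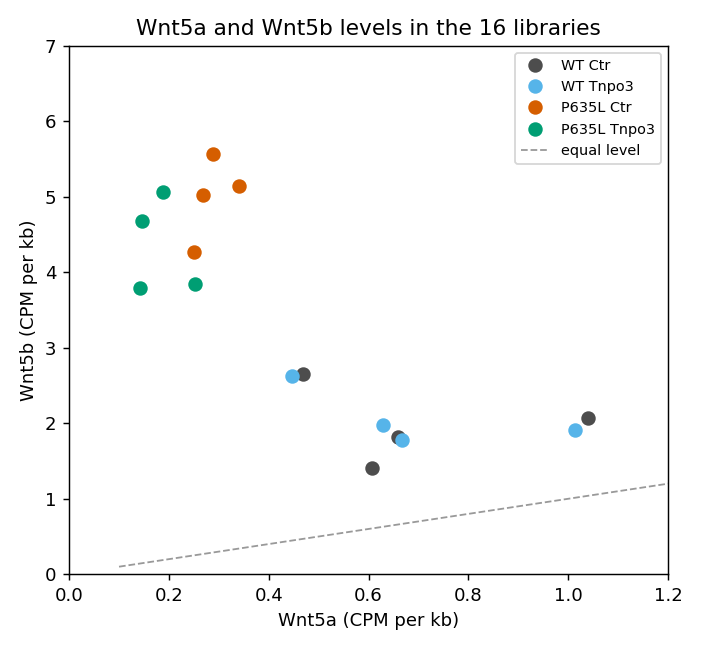
Wnt5a (horizontal axis) and Wnt5b (vertical axis) in CPM per kb, with 1 point per library coloured by group and a dashed line at equal levels. The 8 mutant libraries lie at higher Wnt5b and lower Wnt5a than all 8 wild-type libraries, whichever virus they received.

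Of the 19 ligands, 10 were tested and 9 had too few counts. Wnt5b made up 22.9% to 37.7% of the summed ligand level (CPM per kb) in WT Ctr and 43.8% to 54.0% in P635L Ctr, with Wnt9a and Wnt11 next in both groups. Wnt9a, a ligand known from joint development, had the highest mean level per length over the 16 libraries among the ligands not called, although Wnt11 was higher in WT Tnpo3. Wnt9a stood at 5.03, 4.99, 4.80 and 4.52 CPM in WT Ctr, 6.73, 7.84, 7.89 and 8.23 in P635L Ctr and 4.98, 6.47, 3.52 and 6.47 in P635L Tnpo3. Its P635L Ctr libraries were above all WT Ctr libraries and above all P635L Tnpo3 libraries, but the log2 change of 0.67 (SE 0.22, edgeR adjusted p = 0.0521) in P635L Ctr against WT Ctr missed the threshold, as did -0.52 (SE 0.22, edgeR adjusted p = 0.211) for the virus. In the authors' deposited table Wnt9a was called in P635L Ctr (log2 fold change 0.68, DESeq2 adjusted p = 6.42e-05). The remaining 7 tested ligands had log2 fold changes from -0.80 (Wnt2b) to 1.14 (Wnt2) in P635L Ctr against WT Ctr, and none was called in any comparison.

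Among the secreted antagonists, 4 of the 8 tested rose in P635L Ctr, where 7.07% of all genes tested were called higher: Dkk3, Sfrp2, Frzb and Sfrp1. None of the 8 was called by edgeR in P635L Tnpo3 against P635L Ctr or against WT Ctr. Dkk3, the Dickkopf member whose action on Wnt signalling depends on context, stood at 3.94, 2.93, 2.88 and 4.46 CPM in WT Ctr, 17.3, 19.0, 12.0 and 20.5 in P635L Ctr and 3.56, 8.63, 3.48 and 12.3 in P635L Tnpo3. Every P635L Ctr library was above every WT Ctr library, and in P635L Tnpo3 replicates 2 and 4 were higher than 1 and 3, with replicate 4 above the lowest P635L Ctr library. The log2 fold change was 2.27 (SE 0.39, edgeR adjusted p = 0.000892) in P635L Ctr against WT Ctr and -1.30 (SE 0.37, edgeR adjusted p = 0.0637) in P635L Tnpo3 against P635L Ctr, the latter not called.

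Sfrp2, a secreted Wnt-binding protein made by fibroblasts, stood at 1.85, 1.36, 2.11 and 0.609 CPM in WT Ctr, 7.60, 5.08, 2.74 and 6.69 in P635L Ctr and 2.54, 6.62, 2.08 and 6.32 in P635L Tnpo3. P635L Ctr lay above WT Ctr throughout, and the log2 change was 1.90 (SE 0.43, edgeR adjusted p = 0.00618). P635L Tnpo3 overlapped P635L Ctr and gave -0.33 (SE 0.40, edgeR adjusted p = 0.732) against it, and replicates 2 and 4 were again the high ones. Against WT Ctr, P635L Tnpo3 gave 1.57 (SE 0.43, edgeR adjusted p = 0.0560), which missed the threshold, and the libraries overlapped. In the authors' deposited table Sfrp2 was called higher in P635L Tnpo3 than in WT Ctr (log2 fold change 1.60, DESeq2 adjusted p = 0.00977). Exons of Sfrp2 overlap Gm26771 on the other strand, and its call in P635L Ctr had an edgeR adjusted p of 0.0685 once the 3 libraries rich in ENSMUSG00000119584 were left out.

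Frzb, also called Sfrp3, stood at 11.6, 7.84, 7.98 and 6.23 CPM in WT Ctr, 18.1, 18.8, 13.0 and 22.3 in P635L Ctr and 6.54, 11.0, 5.35 and 14.7 in P635L Tnpo3. Sfrp1 stood at 19.6, 17.9, 12.7 and 13.8 CPM in WT Ctr, 27.5, 24.5, 17.4 and 33.5 in P635L Ctr and 14.7, 25.4, 22.0 and 21.7 in P635L Tnpo3. P635L Ctr lay above WT Ctr in every library for Frzb, whereas for Sfrp1 P635L Ctr 3 lay among the WT Ctr libraries. The log2 fold changes in P635L Ctr against WT Ctr were 1.11 (SE 0.31, edgeR adjusted p = 0.0241) for Frzb and 0.69 (SE 0.19, edgeR adjusted p = 0.0191) for Sfrp1. Against P635L Ctr, P635L Tnpo3 gave -0.94 (SE 0.31, edgeR adjusted p = 0.101) and -0.30 (SE 0.19, edgeR adjusted p = 0.420), neither called. These are the least firm of the calls: Frzb lost its call with no low-count filter and without WT Ctr 2, 3 or 4 or P635L Ctr 2 or 4 (edgeR adjusted p up to 0.181 over all alternatives), and Sfrp1 without WT Ctr 3 or 4 or P635L Ctr 4 (up to 0.0815). Both also lost it when the 3 libraries rich in ENSMUSG00000119584 were left out, and when the 3 libraries with high Xist were left out (edgeR adjusted p = 0.0630 for Frzb and 0.0562 for Sfrp1).

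The replicates of P635L Tnpo3 that were high in Dkk3, Sfrp2 and Frzb were also high in fibroblast markers. Summed fibroblast markers were 3415 and 3409 CPM in replicates 2 and 4 and 2750 and 2779 in replicates 1 and 3. Summed activated fibroblast markers were 447 and 677 CPM in replicates 2 and 4 and 259 and 249 in replicates 1 and 3. Tnpo3 itself stood at 723 and 234 CPM in replicates 2 and 4 and 359 and 543 in replicates 1 and 3, so replicates 2 and 4 held both the highest and the lowest Tnpo3 level. Wif1 and Sfrp1 did not share this order: Wif1 was lowest in replicate 4, at 1.44 CPM, and Sfrp1 stood at 22.0 CPM in replicate 3 and 21.7 CPM in replicate 4. Outside the antagonists, the receptors Fzd1 and Fzd2 and the uncalled ligand Wnt9a were also highest in replicates 2 and 4. Fzd7, Wnt5a and Wnt5b were not. The pair of replicates was picked after its values were seen. The part of the marker and Tnpo3 levels in the antagonist, receptor and ligand values was not tested.

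Of the 4 antagonists called, Frzb and Sfrp2 were matched to a promoter window and Dkk3 and Sfrp1 were not, and Frzb is shown as the 1 of these 2 windows that held both motifs. It lies at chr2:80447397-80447646 in GRCm38.p6 on the minus strand, and capitals mark a TCF/LEF core and a GC box, each on either strand.
Frzb: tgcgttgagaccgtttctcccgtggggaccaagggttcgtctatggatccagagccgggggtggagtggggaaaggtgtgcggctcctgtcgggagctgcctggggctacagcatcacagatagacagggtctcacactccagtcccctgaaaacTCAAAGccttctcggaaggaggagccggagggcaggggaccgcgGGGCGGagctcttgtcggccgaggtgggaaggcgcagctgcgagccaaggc
The window of Sfrp2 held neither of these motifs, nor the TEAD core.

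Wif1, an antagonist that binds Wnt ligands directly, had the highest level per length among the antagonists not called and varied widely within groups. It stood at 3.98, 3.84, 5.10 and 1.33 CPM in WT Ctr, 2.12, 2.32, 3.24 and 1.78 in WT Tnpo3, 4.19, 8.50, 11.3 and 6.42 in P635L Ctr and 8.42, 5.95, 6.73 and 1.44 in P635L Tnpo3. The groups overlap, and the log2 fold change in P635L Ctr against WT Ctr was 1.10 (SE 0.46, edgeR adjusted p = 0.128). In the authors' deposited table Wif1 was called in this comparison (log2 fold change 1.11, DESeq2 adjusted p = 0.0233). Dkk2, Sfrp4 and Sfrp5 were below 2 CPM in every library and were called in no comparison. Per length, the 11 antagonists summed to 10.3 ± 2.05 CPM per kb in WT Ctr, 10.2 ± 1.18 in WT Tnpo3, 22.9 ± 3.51 in P635L Ctr and 15.1 ± 3.16 in P635L Tnpo3 (SD, n = 4 each).

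Axin2 and Lef1, which report beta-catenin activity in many tissues, did not follow the receptors. Axin2, a scaffold of the complex that degrades beta-catenin and itself a target of the pathway, was at 2.82, 4.17, 2.66 and 3.07 CPM in WT Ctr, 2.53, 2.61, 3.79 and 3.33 in P635L Ctr and 2.83, 3.09, 4.15 and 3.33 in P635L Tnpo3. The 3 ranges overlap, and the log2 fold changes were -0.05 (SE 0.22, edgeR adjusted p = 0.907) in P635L Ctr against WT Ctr and 0.13 (SE 0.21, edgeR adjusted p = 0.812) in P635L Tnpo3 against P635L Ctr. Lef1, a DNA-binding partner of beta-catenin, was below 2 CPM in every library and was not called. Exons of both genes overlap a gene on the other strand.

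Beyond the 46 genes, lists of the pathway gave the following counts in P635L Ctr against WT Ctr. Of 23 tested genes of Wnt secretion and surface modulation, 6 rose (26.1%) and none fell, where 7.07% of all genes tested were called higher (median log2 fold change 0.10, against -0.05 for all genes). They included Wls, the carrier that brings Wnt proteins to the cell surface (log2 fold change 0.59, edgeR adjusted p = 0.00278), Sost, an inhibitor of LRP5 and LRP6 (log2 fold change 1.60, edgeR adjusted p = 0.0140), Reck, a co-factor of Wnt7 ligands (log2 fold change 0.63, edgeR adjusted p = 0.0280), and Lgr4, a receptor of R-spondins (log2 fold change 0.47, edgeR adjusted p = 0.0431). The next 3 lists held smaller shares of calls than the 14.2% of all genes tested. Of 24 genes of the destruction complex and signalosome, 2 rose (8.33%), Ctnnb1, which encodes beta-catenin (log2 fold change 0.38, edgeR adjusted p = 0.0337), and the casein kinase Csnk1g3 (log2 fold change 0.41, edgeR adjusted p = 0.0178), and the median was -0.02. Of 16 nuclear effectors, 1 fell (6.25%), Pygo1, a co-activator of beta-catenin (log2 fold change -0.53, edgeR adjusted p = 0.0317). Of 26 genes of planar polarity and calcium signalling, 3 were called (11.5%): Camk2b, a calcium/calmodulin kinase, rose (log2 fold change 0.56, edgeR adjusted p = 0.0239), and Celsr3, a polarity cadherin, and Ankrd6 fell (log2 fold change -1.93, edgeR adjusted p = 0.0163 and log2 fold change -0.85, edgeR adjusted p = 0.0466).

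The list of beta-catenin target genes split. Of 16 tested, 5 rose and 1 fell in P635L Ctr (37.5% called, against 14.2% of all genes tested), and the median log2 fold change was 0.08. The matricellular genes Ccn4 and Ccn5 rose (log2 fold change 2.20, edgeR adjusted p = 5.06e-06 and log2 fold change 2.95, edgeR adjusted p = 0.00318), as did Nkd2, an inhibitor of Dishevelled (log2 fold change 1.94, edgeR adjusted p = 0.00148), whereas the receptor gene Tnfrsf19 fell (log2 fold change -2.26, edgeR adjusted p = 0.000538). In P635L Tnpo3 against P635L Ctr, where 3.88% of all genes tested were called (2.25% lower), the calls in the 5 lists numbered 3 of 23, 1 of 24, 0 of 16, 0 of 26 and 1 of 16, all lower: Wls (log2 fold change -0.57, edgeR adjusted p = 0.0126), Sost (log2 fold change -1.67, edgeR adjusted p = 0.0273), Lgr4 (log2 fold change -0.56, edgeR adjusted p = 0.0438), Ctnnb1 (log2 fold change -0.56, edgeR adjusted p = 0.0112) and the target gene Bambi, a pseudoreceptor of TGF-beta (log2 fold change -1.06, edgeR adjusted p = 0.00532). Ccn4, Ccn5 and Nkd2 were not among them and were still higher in P635L Tnpo3 than in WT Ctr (log2 fold change 1.74, edgeR adjusted p = 0.000335, log2 fold change 2.80, edgeR adjusted p = 0.0157 and log2 fold change 1.37, edgeR adjusted p = 0.0461). No gene of the 5 lists was called in WT Tnpo3 against WT Ctr, with 1 gene at an unadjusted p under 0.05.

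The remaining 13 genes had too few counts to be tested: Wnt1, Wnt3, Wnt3a, Wnt7a, Wnt7b, Wnt8a, Wnt8b, Wnt10a, Wnt16, Fzd10, Dkk1, Dkk4 and Dkkl1. None of them passed 14 counts or 0.507 CPM in a library. Dkk1, a strong inhibitor of LRP5 and LRP6, was named after its values were seen: it had 0 counts in all 8 control-virus libraries, counts of 3, 2, 3 and 5 in P635L Tnpo3 and of 2, 0, 5 and 0 in WT Tnpo3. All 4 P635L Tnpo3 libraries thus held Dkk1 counts, 13 in all. Taken alone, a library with a count of 0 allows an expected count of up to 3. Over the 8 control-virus libraries together, the same bound holds for their summed expected count. In the authors' deposited table Dkk1 had a log2 fold change of 3.49 in P635L Tnpo3 against WT Ctr, with an unadjusted DESeq2 p of 0.0588 and no adjusted p, and with WT Ctr at 0 this fitted value is no bound. No other test of Dkk1 was made.

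Splicing of these genes was covered thinly. The authors' deposited rMATS tables listed 21 events in 10 of the 46 genes for P635L Ctr against WT Ctr, 19 in 6 for P635L Tnpo3 against WT Ctr and 15 in 4 for WT Tnpo3 against WT Ctr. Those with an FDR under 0.05 numbered 2, 1 and 0. None was called, for which inclusion had also to differ by 0.1 or more with 10 junction reads per library on average, against 1.97%, 1.65% and 0.731% of all events listed. Fzd1, Fzd2 and Fzd7 have 1 exon and cannot show a splicing event.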

How the data were processed

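RNA of 16 left ventricles was sequenced from stranded poly(A) libraries, per the labels' protocols. Per the submitters' processing notes, reads were aligned to GRCm39 with STAR 2.7.9a and counted per gene with featureCounts 2.0.6. The annotation release and the use of strand in counting are not given in the sources used here. The deposited table holds raw counts of whole reads. The authors' deposited tables of DESeq2 hold log2 fold changes against WT Ctr with p-values, and the sign was turned here so that WT Ctr is the reference. The authors' deposited rMATS tables hold junction reads, inclusion levels from 0 to 1, p-values and FDR, with the inclusion difference of each event as a signed score.

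Symbols came from the splicing tables (10 of the 46 genes) and a table of gene names (36). The members and gene lists were chosen with earlier results of these data known. Counts were tested with edgeR 4.0.16 in R 4.3.3 (TMM factors, filterByExpr, robust quasi-likelihood F test, two-sided, Benjamini-Hochberg over 18662 genes) in 1 fit of 16 libraries with a mean per group and 12 residual degrees of freedom, for 5 contrasts and 1 interaction. The script was tested on simulated counts. Each library is a separate mouse. CPM per kb was used to compare genes, and promoters came from RefSeq (GRCm38.p6). Genes called in any comparison were described in full, with the highest uncalled gene of each role. Of each pathway list at most 4 called genes per comparison were named, smallest adjusted p first, except Bambi, named in its second comparison. Alternatives were DESeq2 1.42.0, other scalings and filters, an effect-size minimum, the compared groups alone, a replicate block and libraries left out.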

Additional observations from a re-analysis of the deposited data

Results flagged for a closer look

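Fzd2 was flagged because the effect of the Tnpo3 virus differed between genotypes: the log2 fold change in P635L hearts minus that in wild-type hearts was -1.79 (edgeR adjusted p = 0.00274). Of 76 groups of 4 libraries tested for a single library far from the rest, 2 were flagged (2.63%), where chance flags about 1 in 20. Sfrp1 stood at 16.7 CPM in WT Tnpo3 replicate 4 and at 15.3 to 15.4 CPM in the other WT Tnpo3 libraries. Fzd4 stood at 64.7 CPM in P635L Tnpo3 replicate 3 and at 42.7 to 45.3 CPM in the other P635L Tnpo3 libraries.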

How the results depend on the processing

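No log2 fold change of a called gene changed sign in any alternative. The calls of Fzd2, Wnt5b and Dkk3 held in all of them, as did that of Fzd1 in P635L Ctr against WT Ctr. In the same comparison the call of Fzd7 held in all but the effect-size minimum, an absolute log2 fold change of 1. Fzd7 (0.71) and Sfrp1 (0.69) fell short of that minimum. P635L Ctr against WT Ctr gave 9 calls, 5 without the 3 libraries rich in ENSMUSG00000119584, and 7 to 10 when each library was left out in turn. P635L Tnpo3 against P635L Ctr gave 3 calls, 5 with DESeq2 and 1 to 5 by library left out: 1 without P635L Ctr 4 or P635L Tnpo3 3, and 5 without P635L Tnpo3 4. P635L Tnpo3 against WT Ctr gave 3, 5 with DESeq2 and 3 to 5 by library left out, with 5 without WT Ctr 3. The interaction gave 1, 2 with DESeq2, 2 without a low-count filter and 1 to 2 by library left out, with 2 without P635L Ctr 3. DESeq2 also called more genes among all tested. In P635L Tnpo3 against P635L Ctr it called 628 higher and 742 lower, against 305 and 419 in the main fit. In P635L Tnpo3 against WT Ctr it called 567 and 546, against 278 and 295. In the interaction it called 168 and 234, against 55 and 39. The cause of these changes was not tested. Replicate numbers were not used as pairs. Same-numbered libraries of different groups had a mean correlation of deviations of -0.0116 over 24 pairs (-0.257 to 0.552). Libraries with different numbers had a mean of 0.00377 over 72 pairs (-0.326 to 0.251). A mean cannot show whether some libraries were paired. With a replicate block the counts of calls were 11, 4, 3, 0, 3 and 3 for the 5 contrasts and the interaction. Calls among all genes are not given here for this block, for the missing filter or for libraries left out. Changes in those counts therefore cannot be read as particular to these genes. With upper-quartile factors the genes called higher and lower among all tested were 384 and 383 in P635L Tnpo3 against P635L Ctr, against 305 and 419, and 350 and 246 in P635L Tnpo3 against WT Ctr, against 278 and 295. Each library was also left out for the ratios of Fzd2 to fibroblast markers and of Wnt5b to Wnt5a and for the share of Fzd2. This alternative was chosen after seeing the data. These measures moved by less than the spread between replicates. Leaving out 1 of 4 libraries moves a group mean by less than the SD of the group whatever the values. The outcome therefore does not show how firm these measures are. Ligands near 0 counts are limited by depth.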
